A study of Arabidopsis thaliana with 69 samples.

Results

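The small RNA profiles of 2 postembryonic tissues were set beside those of late embryos. One library came from rosette and cauline leaves, one from unopened floral buds, and 3 from mature green embryos, the last of the 8 embryonic stages that were profiled. All 5 were made from wild-type Col-0 plants of Arabidopsis (Arabidopsis thaliana), and these 5 libraries were chosen by their tissue labels from the 69 samples of the series. The growth notes in the labels give an age of 4 weeks at harvest, long days and no treatment for every group, and no transgene or mutation is listed for any of them. Each mature green library was made from a separate pool of embryos collected on a different day. Leaf and floral bud were represented by a single library each, which the labels number as the third biological replicate, so neither tissue has a spread of its own. The labels put mature leaves of different positions together, and buds of all floral organs together, so every value below is an average over many cell types. No mRNA library of these tissues was part of the comparison, and the tissue labels could not be checked against marker transcripts.

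Plant miRNAs are small RNAs cut from a folded precursor by DICER-LIKE1. One arm of the precursor, the guide, is loaded into ARGONAUTE proteins and directs cleavage or repression of transcripts with a matching site, whereas the partner arm is usually lost. Many conserved families control transcription factors. In the shoot, miR156 and its relative miR157 repress SPL genes and mark the juvenile phase, miR172 represses AP2-like genes in adult shoots and flowers, miR319 restrains TCP genes, miR396 restrains growth-regulating factors, and miR159 restrains GAMYB-like genes.

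In total, 427 mature miRNAs were listed, and all of them were found by name in the RefSeq annotation of TAIR10.1, the nuclear sequence to which the sequences and coordinates given here refer. Because 123 of them share 45 identical sequences, loci with the same mature sequence were summed, which gave 349 distinct mature sequences. The sequences on which the results turn are shown 5′ to 3′ with bases 2 to 8, the seed, in capitals. The first set holds miR159 and its relative miR319, with 2 other sequences that were abundant in leaf, because their relative levels separate the tissues.
miR159a: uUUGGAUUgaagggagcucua
miR159b-3p: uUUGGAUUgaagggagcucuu
miR319a,b: uUGGACUGaagggagcucccu
miR319c: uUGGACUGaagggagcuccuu
miR161.1: uGAAAGUGacuacaucggggu
miR398b,c-3p: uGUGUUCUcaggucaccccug

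The second set holds sequences that were almost absent from mature green embryos and abundant in leaf or in floral buds.
miR396a-5p: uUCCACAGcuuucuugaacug
miR396b-5p: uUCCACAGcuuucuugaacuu
miR396a-3p: gUUCAAUAaagcugugggaag
miR396b-3p: gCUCAAGAaagcugugggaaa
miR163: uUGAAGAGgacuuggaacuucgau
miR393b-3p: aUCAUGCGaucucuuuggauu
miR780.1: uCUAGCAGcuguugagcaggu
miR780.2: uUCUUCGUgaauaucuggcau

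The third set holds sequences that were lower in leaf, in floral buds or in both, with 2 relatives of miR156 that were not.
miR156a-5p: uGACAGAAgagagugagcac
miR156g: cGACAGAAgagagugagcac
miR156h: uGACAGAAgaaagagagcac
miR157a,b,c-5p: uUGACAGAagauagagagcac
miR845a: cGGCUCUGauaccaauugaug
miR845b: uCGCUCUGauaccaaauugaug
miR846-5p: cAUUCAAGgacuucuauucag
miR846-3p: uUGAAUUGaagugcuugaauu
miR858a: uUUCGUUGucuguucgaccuu

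Each of these sequences lies in an annotated, noncoding MIR gene. The miR159a sequence lies at chr1:27713234-27713254 on the minus strand (AT1G73687) and miR159b-3p at chr1:6220813-6220833 on the plus strand (AT1G18075). On chromosome 5, miR396b-5p lies at chr5:13611808-13611828 on the plus strand (AT5G35407), and miR398b-3p, which is identical to miR398c-3p, at chr5:4691107-4691127 on the plus strand (AT5G14545). The miR163 sequence was found at chr1:24884359-24884382 on the plus strand (AT1G66725). Both miR780 sequences come from AT4G14811, miR780.1 at chr4:8504166-8504186 and miR780.2 at the adjoining chr4:8504145-8504165, on the minus strand. The miR845a and miR845b sequences lie near each other, at chr4:12217457-12217477 (AT4G23387) and chr4:12214086-12214107 (AT4G23375) on the minus strand, and both arms of miR846 come from AT1G61226 on chromosome 1. The miR156a-5p sequence was common to 6 MIR156 genes, of which the first, AT2G25095, holds it at chr2:10676534-10676553 on the minus strand. Counted from the 5′ end, miR159a and miR159b-3p differ only by A21U, miR396a-5p and miR396b-5p by G21U, and miR156a-5p and miR156g by U1C, so reads that end 1 base early cannot be told apart between the members of the first 2 pairs.

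The leaf library was shallow, with 687369 genome-matching reads. The floral bud library held 2889901 and the mature green libraries 33945806, 29169109 and 28000510. Levels are given in RPM, which are counts of 20- to 24-base reads scaled to the genome-matching reads of the library. A level of 3 reads, used as the floor, was 4.36 RPM in leaf and 1.04 RPM in floral bud, and 0.0884, 0.103 and 0.107 RPM in mature green. Floors and counting intervals cover counting error only, since PCR copies of 1 molecule cannot be recognised in these libraries. The 24 embryo libraries of all 8 stages, from which the spread between replicates was estimated, held 1665910 to 52374394 reads.

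miRNAs made up a larger part of the small RNA of leaf than of any embryo library. The leaf library had 129480 RPM of miRNA reads, or 12.9% of its genome-matching reads (95% Wilson interval 12.9% to 13.0%), and the floral bud library had 52641 RPM, or 5.26% (5.24% to 5.29%). The mature green libraries had 29056, 43212 and 34786 RPM. Both postembryonic libraries therefore lay above the mature green range, and leaf also lay above the highest of the 24 embryo libraries, 64364 RPM in late torpedo embryos, whereas floral bud lay within the embryonic range. Relative to the mature green mean of 35685 ± 7121 RPM (SD, n = 3), the level was 3.63 times as high in leaf and 1.48 times as high in floral bud. With 1 library against 3 no exact permutation test can pass the threshold, and none was run. In bulk tissue, more cells that make a miRNA and more miRNA per cell cannot be told apart. The RNA input of the leaf and floral bud libraries is not given in the sources used here, so tissue and input cannot be told apart either.

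**Figure D1:**
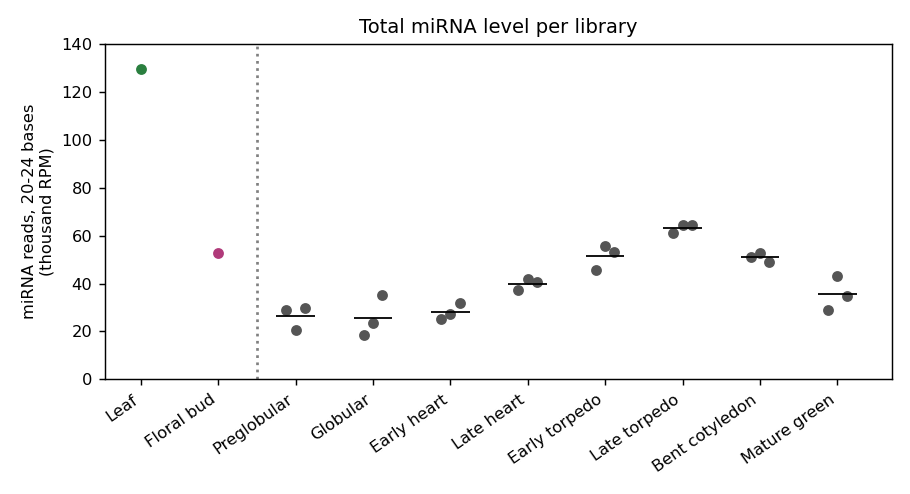
Total miRNA level per library, in RPM of 20- to 24-base reads with the axis divided by 1000. Points are single libraries and bars are the means of 3 libraries of an embryonic stage. Leaf, at 129480 RPM, lies above all 24 embryo libraries, and floral bud, at 52641 RPM, lies within their range of 18665 to 64364 RPM and above the 3 mature green libraries.

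The number of distinct sequences detected depended on depth. At least 1 read was assigned to 174 distinct sequences in leaf and to 227 in floral bud, against 217 to 228 in the far deeper mature green libraries. After every library was brought to the depth of the leaf library by calculation, 174 sequences were expected in floral bud and 101 to 113 in mature green. This made the number of genome-matching reads equal but not that of miRNA reads, of which leaf still held the most. A few sequences dominated every library. The 5 most abundant sequences took 70.9% of miRNA reads in leaf and 57.1% in floral bud, against 66.6% to 74.8% in mature green. They were miR159b-3p, miR159a, miR161.1, miR162a,b-3p and miR398b,c-3p in leaf, and miR162a,b-3p, the miR166 sequence common to 7 genes, miR159a, miR161.1 and miR159b-3p in floral bud. In mature green they were the same miR166 sequence, miR156a-5p, miR159a, miR161.1 and miR162a,b-3p.

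Of the 95 sequences with at least 10 RPM in leaf, 76 lay above the mature green range, which is 80% of them, and 71 of these were at least 2-fold above the highest mature green library. Of the 41 sequences with a mature green mean of at least 10 RPM, 18 lay below that range in leaf, or 43.9%, and 12 of these by at least 2-fold. For floral bud, 72 of 89 sequences lay above the range, or 80.9%, with 62 at least 2-fold above, and 14 of 41 lay below it, or 34.1%, with 10 at least 2-fold below. A sequence that reached 10 RPM only in the single library could hardly lie elsewhere than above the range, which applied to 57 of the 76 in leaf and to 53 of the 72 in floral bud. Among the 37 sequences with at least 10 RPM in leaf and in mature green, 19 lay above the range, 14 below and 4 within it. For the 36 such sequences of floral bud, the counts were 19, 9 and 8. Over all 154 sequences that entered the test described next, whatever their level, 68.8% lay above and 22.7% below the mature green range in leaf, and 70.8% lay above and 16.2% below it in floral bud, 91.6% and 87% in all. A position outside a range of 3 libraries was therefore common. At the edge of the list, miR841a-5p had 7 reads in leaf, or 10.18 RPM, and was included, whereas 5 sequences with 6 reads, or 8.73 RPM, were not. In floral bud, miR164c-3p was included at 10.03 RPM and miR8183 was not at 8.997 RPM.

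Most of the listed sequences above the mature green range lay above earlier embryos too. Of the 76 sequences above the mature green range in leaf, 63 lay above all 24 embryo libraries, and 60 of the 72 in floral bud did so. Of those below the mature green range, 9 of 18 in leaf and 6 of 14 in floral bud lay below all 24. Since 57 of the 76 and 53 of the 72 reached 10 RPM only in the single library, a high share above was partly built in. No share over all 154 sequences is given beside these counts, so they are description only.

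The same levels were tested with edgeR's quasi-likelihood test, in which the single leaf and floral bud libraries are assumed to vary like the 8 embryonic stages. Of 154 sequences with a mean of at least 1 RPM over the 10 groups, 76 were higher in leaf than in mature green, or 49.4%, and 13 were lower, or 8.44%. In floral bud, 74 were higher, or 48.1%, and 10 were lower, or 6.49%. The tests share the mature green libraries. In all, 48 sequences were higher in both tissues and 7 lower in both, 2 were higher in leaf and lower in floral bud, and 2 were lower in leaf and higher in floral bud. Of those called higher, 8 in leaf and 10 in floral bud had no read in any mature green library. Such sequences passed the filter only through other groups, so their calls add nothing to their levels. Among the 41 sequences with a mature green mean of at least 10 RPM, 18 were higher and 12 lower in leaf, with a median log2 difference of -0.04, and 11 were higher and 8 lower in floral bud, with a median of 0.23.

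How the libraries were scaled moved these counts. With genome-matching reads as the scale, the median log2 difference over the 154 sequences was 2.81 in leaf and 2.16 in floral bud. From the RPM themselves, with sequences at 0 set to their bound, it was 3.22 in leaf and 2.16 in floral bud. The fitted median was 0.97 and 1.62 with total miRNA reads as the scale, 1.5 and 0.98 with DESeq2's size factors, and -0.45 and -0.44 with TMM factors. Accordingly, 45 sequences were higher and 24 lower in leaf when miRNA reads were the scale, 45 and 21 with DESeq2, and 30 and 34 with TMM. In floral bud the counts were 66 and 16, 34 and 26, and 41 and 34. Of the sequences called higher, 58 of 76 in leaf and 64 of 74 in floral bud had the same direction under all 3 other scalings, as did all 13 and all 10 called lower. Fewer were still called under all 3, namely 23 of 76 in leaf and 25 of 74 in floral bud among those higher, and all 13 and all 10 among those lower. Differences below are on the genome-matching scale.

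**Figure D2:**
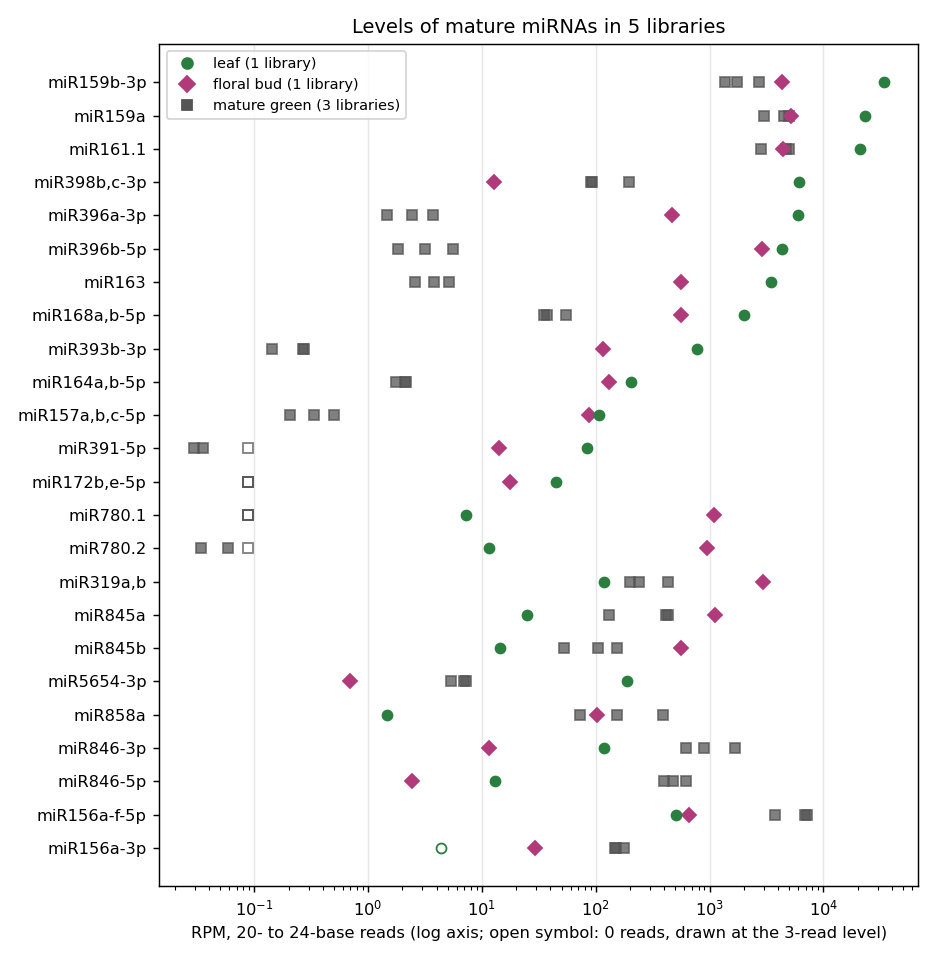
Levels of 24 mature miRNAs in the 5 libraries, in RPM of 20- to 24-base reads on a log axis. Green circles are leaf, purple diamonds floral bud and grey squares the 3 mature green libraries, and an open symbol is a library with 0 reads, drawn at a level of 3 reads. The miR396, miR163 and miR393b-3p points of leaf and floral bud lie far to the right of mature green, the miR846 and miR156a-5p points lie to the left, and miR398b,c-3p and the miR845 pair lie on opposite sides in the 2 tissues.

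Among growth regulators, miR396 set leaf and floral bud apart from embryos most plainly. The guide miR396b-5p had 4339 RPM in leaf and 2891 RPM in floral bud, against 3.18, 5.54 and 1.85 RPM in mature green. Each postembryonic library was thus far above all 3 mature green libraries, 1233-fold above their mean in leaf and 821-fold in floral bud. The fitted log2 difference was 10.26 ± 1.34 (SE) in leaf and 9.67 ± 1.31 in floral bud, with edgeR adjusted p of 1.03e-06 and 2.20e-06. The related miR396a-5p had 391 RPM in leaf and 127 RPM in floral bud, against 0.0948, 0.838 and 0.225 RPM. From the other arm, miR396a-3p reached 5931 RPM in leaf and 467 RPM in floral bud, against 1.47, 2.43 and 3.75 RPM. The miR396b-3p sequence had 1224 RPM in leaf and 193 RPM in floral bud, against 0.0884, 0 and 0.107 RPM. It had the largest fitted increase of any sequence in leaf, 14.03 ± 1.22, a value that rests on only 6 mature green reads. Because its leaf level alone was enough to pass the filter, its edgeR call adds nothing to the levels. Over all 24 embryo libraries, miR396b-5p did not exceed 46.5 RPM. All 4 miR396 sequences kept their call in both tissues under all 3 other scalings. Each could pass the filter through its leaf level alone, so these calls add little to the levels.

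The family that represses GAMYB-like genes was the most abundant in leaf. The miR159b-3p sequence had 34003 RPM in leaf and 4302 RPM in floral bud, against 1740, 2689 and 1366 RPM in mature green, and miR159a had 23248 RPM in leaf and 5231 RPM in floral bud, against 2979, 5013 and 4538 RPM. The leaf library stood clear of every other library for both sequences. In leaf, miR159b-3p was higher by 4.14 ± 0.38 on the log2 scale (edgeR adjusted p = 6.52e-09), a direction that held under each scaling, although the call was lost with TMM. The rise of miR159a by 2.48 ± 0.35 (adjusted p = 2.76e-06) turned into a decrease under TMM. In floral bud, miR159b-3p was higher by 1.16 ± 0.39 (adjusted p = 0.0141), which turned negative with TMM and DESeq2 and was not called without mature green replicate 3 (adjusted p = 0.0560), and miR159a did not pass the test (adjusted p = 0.492). Both TMM and DESeq2 called miR159a lower in floral bud. The miR159 family took 44.6% of all miRNA reads in leaf and 18.2% in floral bud, against 16.8%, 18.2% and 17.1% in mature green. The ratio of miR159b-3p to miR159a, which no scaling can alter, was 1.46 in leaf and 0.823 in floral bud, against 0.584, 0.536 and 0.301 in mature green.

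The TCP regulator miR319, a close relative of miR159, showed another order. The sequence shared by miR319a and miR319b had 118 RPM in leaf and 2955 RPM in floral bud, against 239, 435 and 201 RPM in mature green. Floral bud was thus several fold above, and leaf below, every mature green library. The increase in floral bud was 3.34 ± 0.51 (edgeR adjusted p = 9.56e-06), with the same direction under each scaling and the call lost under TMM. Leaf did not pass the test (-1.31 ± 0.62, adjusted p = 0.0747), but was called lower under all 3 other scalings and, at -1.52, without mature green replicate 3 (adjusted p = 0.0499). From the third gene, miR319c had 40.7 RPM in leaf and 401 RPM in floral bud, against 253, 715 and 257 RPM. It fell by 3.32 ± 1.11 in leaf (adjusted p = 0.0128), and in floral bud it lay within the mature green range, where of the other scalings only TMM called it lower. The ratio of miR319a,b to miR319c was 2.89 in leaf and 7.37 in floral bud, against 0.946, 0.608 and 0.781 in mature green. In the list of miR159, miR319 and miR396, 9 of 10 sequences passed the filter on low levels. Of these, 7 were higher and 1 lower in leaf, and 6 were higher and none lower in floral bud, with median log2 differences of 4.14 and 3.34 beside 2.81 and 2.16 over all sequences, of which 49.4% and 48.1% were higher. These counts and medians include the miR396 sequences, whose leaf levels alone were enough to pass the filter. Of the list, 5 in leaf and 4 in floral bud were called under all 3 other scalings, and miR159a and miR159c in leaf and miR159b-3p in floral bud turned direction under at least 1 of them.

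Among the phase change families, the most abundant miR156 sequence was lower and many of its relatives were higher. The main miR156 sequence, miR156a-5p, common to 6 genes and the guide against SPL transcripts, had 511 RPM in leaf and 654 RPM in floral bud, against 3791, 6827 and 7198 RPM in mature green. Both postembryonic libraries lay far below the lowest mature green library and below the lowest of all 24 embryo libraries, 1682 RPM. It fell by 3.54 ± 0.56 in leaf and by 3.18 ± 0.54 in floral bud (edgeR adjusted p = 1.08e-05 and 3.91e-05), under every scaling. The miR156g sequence, which differs at its first base, had 0 reads in leaf, below the floor of 4.36 RPM, and 1.04 RPM in floral bud (3 reads), against 12.6, 24.97 and 27.6 RPM, which is a floral bud to mature green ratio of 0.0478 with a counting interval of 0.0101 to 0.143. The partner strand miR156a-3p likewise had 0 reads in leaf and 29.1 RPM in floral bud, against 146, 177 and 151 RPM, so that it was at least 36.2-fold lower in leaf. In floral bud, miR156c-3p fell to 3.81 RPM, against 36.4, 49.7 and 40.1 RPM in mature green (adjusted p = 0.00755).

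Other members of the same families were higher. The miR157 sequence from 3 genes, which also targets SPL transcripts, had 107 RPM in leaf and 87.9 RPM in floral bud, against 0.206, 0.337 and 0.500 RPM in mature green, where it stayed near the floor. Its log2 difference was 8.24 ± 1.12 in leaf and 7.95 ± 1.10 in floral bud (edgeR adjusted p = 8.57e-06 and 1.33e-05). The partner miR157c-3p had 138 RPM in leaf and 30.1 RPM in floral bud, against 1 read in all of the mature green libraries, a ratio of 14075 in leaf with a counting interval of 2206 to 502562. The partner miR156d-3p had 175 RPM in leaf and 43.6 RPM in floral bud, against 0, 0.171 and 0.107 RPM. Of these reads, 72.5% in leaf and 73.0% in floral bud had 24 bases, whereas the annotated sequence has 23. Floral bud alone was high for miR156h, with 2.91 RPM in leaf (2 reads) and 103 RPM in floral bud, against 0.0884, 0.137 and 0.214 RPM, and for miR157d, with 1.70 RPM in leaf and 47.7 RPM in floral bud, against 0, 0.0747 and 0 RPM. The seed of miR156h and of miR157d is that of miR156a-5p. Summed over the family, miR156 had 1027 RPM in leaf and 872 RPM in floral bud, against 4020, 7134 and 7464 RPM.

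The AP2 regulator miR172 was close to absent from mature green embryos. The sequence miR172a,b-3p had 21.8 RPM in leaf and 3.15 RPM in floral bud and no read in any mature green library, which makes it at least 663-fold higher in leaf and at least 95.6-fold higher in floral bud when mature green is set to 3 reads over its 3 libraries. The other guide, miR172c,d-3p, had no read in leaf and 28.7 RPM in floral bud, against 0, 0.377 and 0.0714 RPM. From the other arm of MIR172b and MIR172e, miR172b,e-5p had 45.1 RPM in leaf and 17.6 RPM in floral bud and none in mature green. Of these 2 guides, which differ only by U21G, leaf had reads of the first alone and floral bud mainly of the second, but a leaf level of miR172c,d-3p under the floor of 4.36 RPM would not have been seen. With so few embryonic reads, these sequences passed the filter through leaf and floral bud, and their edgeR calls add nothing to the levels. DESeq2 gave the same directions but called none of them, with adjusted p of 0.343 and 0.294 in leaf and 0.0564 to 0.471 in floral bud. Of 19 sequences of miR156, miR157 and miR172, 14 passed the filter, of which 7 were higher and 3 lower in leaf and 9 were higher and 4 lower in floral bud. The counts include the miR172 sequences and others that mature green almost lacked, such as miR157c-3p and miR156d-3p. Their levels in leaf or floral bud alone were enough to pass the filter, so their higher calls were largely built in. The share of higher calls in leaf was thus near the 49.4% over all sequences, and in floral bud the share over all was 48.1%. The miR156b-3p sequence had 311 RPM in leaf and 33.6 RPM in floral bud. It was higher in leaf by 2.82 on the log2 scale (edgeR adjusted p = 9.54e-06), a direction that turned under TMM. In floral bud it did not pass (adjusted p = 0.518), although TMM and DESeq2 called it lower.

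Both arms of families that repress copper proteins were high in leaf. The guide miR398b,c-3p, which represses copper/zinc superoxide dismutases, had 6151 RPM in leaf and 12.8 RPM in floral bud, against 93.1, 195 and 91.1 RPM in mature green. Leaf was therefore far above, and floral bud far below, all 3 mature green libraries. The log2 difference was 5.61 ± 0.78 in leaf (edgeR adjusted p = 2.36e-06) and -3.30 ± 1.04 in floral bud (adjusted p = 0.00996), and both directions were called under every scaling. In embryos it reached 1579 RPM, in a late heart library. The partner arm miR398b,c-5p had 3326 RPM in leaf and 46.7 RPM in floral bud, against 11.4, 13.3 and 5.75 RPM. It was thus higher in both tissues, although its direction in floral bud turned under TMM. The plantacyanin and laccase regulator miR408-3p had 886 RPM in leaf and 78.9 RPM in floral bud, against 31.0, 97.7 and 73.6 RPM, and passed the test in leaf (3.72 ± 0.80, adjusted p = 0.000400), where the call was lost under TMM (adjusted p = 0.793) and miRNA scaling (adjusted p = 0.0560), and not in floral bud (adjusted p = 0.852). Of 9 sequences of the copper list 6 passed the filter, and all 6 were higher in leaf, beside 49.4% over all sequences, with a median of 5.20 beside 2.81 over all sequences, and 1 was higher and 1 lower in floral bud. In leaf 2 of the 6 were called under all 3 other scalings, and miR408-5p turned direction. The 6 are guide and partner arms of miR398 and miR408, so they are not independent regulators.

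Regulators of the small RNA pathway itself also differed. The AGO1 regulator miR168a,b-5p had 2009 RPM in leaf and 560 RPM in floral bud, against 37.2, 54.5 and 35.1 RPM in mature green, and its partner miR168a-3p had 1571 RPM in leaf and 440 RPM in floral bud, against 17.5, 19.7 and 13.2 RPM. The guide was higher by 5.57 ± 0.44 in leaf and by 3.73 ± 0.43 in floral bud (edgeR adjusted p = 1.37e-09 and 2.08e-07), which held under each scaling. Reads of 24 bases made up 4.42% of it in leaf and 9.82% in floral bud, against 35.3%, 42.7% and 50.6% in mature green. Its 21-base reads alone had 1325 RPM in leaf and 304 RPM in floral bud, against 11.1, 20.6 and 8.21 RPM. The DCL1 regulator miR162a,b-3p had 7581 RPM in leaf and 8845 RPM in floral bud, against 2031, 4631 and 3259 RPM. It passed the test in both tissues (1.20 ± 0.43 and 1.42 ± 0.42, adjusted p = 0.0183 and 0.00666), but was lower in leaf under all 3 other scalings and lower in floral bud under TMM, and its call in leaf was lost without mature green replicate 1 (adjusted p = 0.0679). The AGO2 regulator miR403-3p did not pass in either tissue, with 464 RPM in leaf and 394 RPM in floral bud, against 550, 804 and 656 RPM, although it was called lower in both under all 3 other scalings. Of the 7 sequences of this list, all tested, 6 were higher in leaf and 5 in floral bud, beside 49.4% and 48.1% over all sequences. Under all 3 other scalings 4 were called in leaf and 2 in floral bud, and miR162a,b-5p also turned direction in leaf.

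In the auxin list, 16 of 18 sequences passed the filter, of which 12 were higher in leaf and 10 in floral bud, beside 49.4% and 48.1% over all sequences. Under all 3 other scalings 4 were called in either tissue. None was lower in either, with medians of 4.92 and 3.26 beside 2.81 and 2.16 over all sequences. In embryos, the miR393 family did not exceed 0.377 RPM in any library. Those of its members that passed the filter did so only through leaf and floral bud, so their higher level was built in. The counts and medians of the list include them. The largest difference was that of miR393b-3p, the partner arm of a regulator of the auxin receptors, with 777 RPM in leaf and 117 RPM in floral bud, against 0.265, 0.274 and 0.143 RPM in mature green. The log2 difference was 11.68 ± 0.90 in leaf and 8.95 ± 0.83 in floral bud. Because the sequence passed the filter through these tissues, its edgeR calls add nothing to the levels. The CUC regulator miR164a,b-5p had 206 RPM in leaf and 132 RPM in floral bud, against 2.11, 2.17 and 1.77 RPM, and miR164c-5p had 164 RPM in leaf and 19.8 RPM in floral bud, against 2.51, 3.896 and 2.45 RPM. The call of miR164c-5p in floral bud (adjusted p = 0.0253) was lost without mature green replicate 1 or 3 (adjusted p = 0.0610 and 0.0676) and under all 3 other scalings. The ARF regulator miR167a-5p,b was higher in leaf, with 946 RPM in leaf and 490 RPM in floral bud, against 211, 414 and 213 RPM, but its direction turned under TMM and under miRNA scaling, and its call was lost without mature green replicate 1 or 3 (adjusted p = 0.0929 and 0.101). Its relative miR167c-5p had 27.6 RPM in leaf and 21.8 RPM in floral bud, against 0.736, 0.514 and 0.321 RPM, and was higher in both under every scaling. A further ARF regulator, the miR160 sequence shared by 3 genes, had 37.8 RPM in leaf and 8.65 RPM in floral bud, against 45.1, 37.1 and 43.9 RPM, and did not pass in either tissue, although all 3 other scalings called it lower in floral bud. The TAS3 trigger miR390a,b-5p, with 69.8 RPM in leaf and 94.1 RPM in floral bud, against 35.4, 16.4 and 46.9 RPM, also did not pass, whereas its partner miR390a-3p was higher in both, with 439 RPM in leaf and 230 RPM in floral bud, against 12.1, 23.9 and 26.8 RPM, although TMM called it in neither (adjusted p = 0.339 and 0.401).

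**Figure D3:**
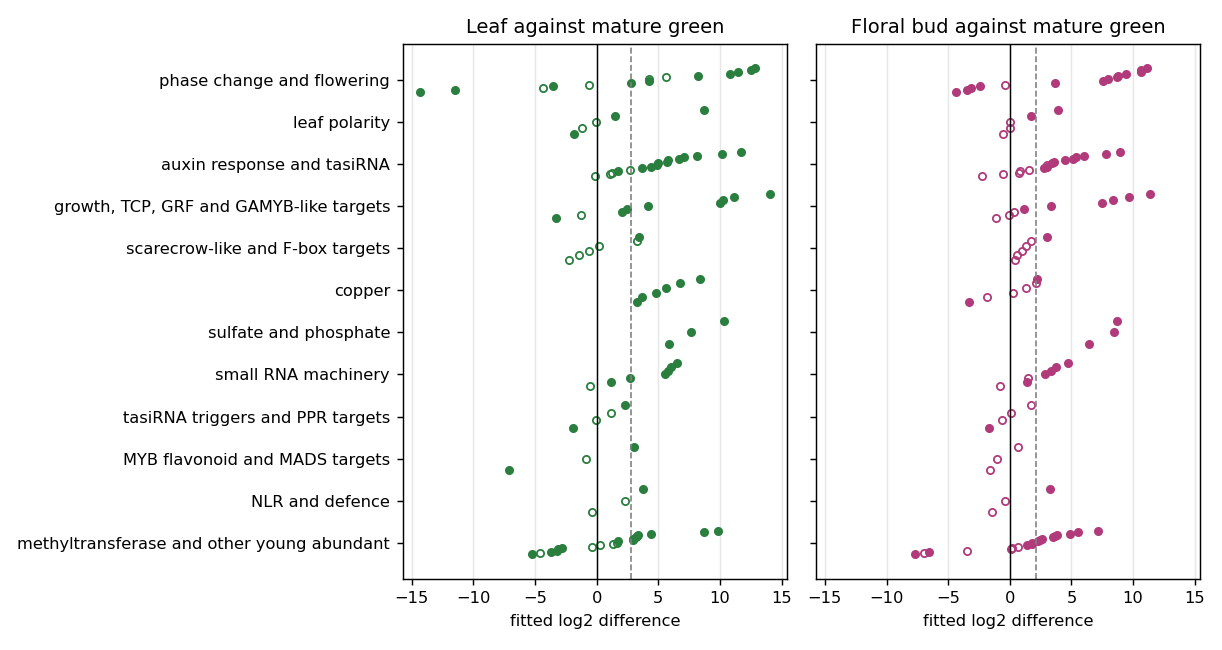
Fitted log2 difference from mature green for each tested mature sequence, by the targets of its family, in leaf (left) and floral bud (right). Filled points passed edgeR's quasi-likelihood test at an adjusted p of 0.05, open points did not, and the dashed line is the median over all 154 sequences (2.81 in leaf, 2.16 in floral bud). All 6 copper sequences are filled and positive in leaf, and 2 of 6 are filled in floral bud.

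The guides of the leaf polarity family were not higher in either tissue. The miR165a-3p,b sequence, which represses class III HD-ZIP genes, had 351 RPM in leaf and 1216 RPM in floral bud, against 1363, 1274 and 1048 RPM in mature green. It fell by 1.81 ± 0.57 in leaf (edgeR adjusted p = 0.00867) under every scaling. The miR166 guide of the same seed had 3269 RPM in leaf and 7273 RPM in floral bud, against 8381, 7387 and 6345 RPM. Leaf lay below the range, but its difference of -1.17 ± 0.58 did not pass (adjusted p = 0.0860), although it was called lower under all 3 other scalings. Floral bud lay within the range for both guides, although TMM and DESeq2 called both lower there. The partner strand miR166e-5p was higher in both tissues, with 378 RPM in leaf and 13.8 RPM in floral bud, against 0.501, 1.34 and 0.929 RPM. A second partner, miR165a-5p, with 138 RPM in leaf and 168 RPM in floral bud, against 37.0, 46.6 and 66.4 RPM, also passed in both, but turned direction under TMM in both and under miRNA scaling in leaf, where the call was lost without mature green replicate 1 (adjusted p = 0.0503).

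Several young families, those without relatives outside close species, showed large differences in 1 direction or the other. The 24-base miR163, which targets methyltransferase genes, had 3494 RPM in leaf and 558 RPM in floral bud, against 5.10, 2.61 and 3.79 RPM in mature green. It was higher by 9.83 ± 0.70 in leaf and 7.18 ± 0.65 in floral bud (edgeR adjusted p = 6.52e-09 and 1.11e-07), under every scaling. The miR846 pair, whose targets are jacalin-related lectins, was lower in both tissues. The miR846-5p sequence had 13.1 RPM in leaf (9 reads) and 2.42 RPM in floral bud (7 reads), against 400, 622 and 475 RPM. It fell by 5.25 ± 0.65 in leaf and by 7.68 ± 0.73 in floral bud (adjusted p = 5.08e-07 and 1.88e-08). For miR846-3p, 119 RPM in leaf and 11.4 RPM in floral bud stood against 886, 1666 and 625 RPM.

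Leaf was the low tissue for miR845, a family known from pollen, where it matches the primer binding site of retrotransposons. The miR845a sequence had 24.7 RPM in leaf and 1118 RPM in floral bud, against 131, 427 and 410 RPM in mature green, and miR845b had 14.5 RPM in leaf and 564 RPM in floral bud, against 52.3, 153 and 106 RPM. For both, leaf lay below and floral bud above all 3 mature green libraries. They fell by 3.70 ± 0.82 and 2.83 ± 0.74 in leaf (edgeR adjusted p = 0.000579 and 0.00232) under every scaling, and were higher by 1.79 ± 0.57 and 2.45 ± 0.51 in floral bud (adjusted p = 0.0102 and 0.000353), where the direction turned under TMM. Even so, the floral bud level was within the embryonic range, since preglobular embryos had up to 6621 RPM of miR845a. The flavonoid MYB regulator miR858a had a single read in leaf and 103 RPM in floral bud, against 154, 393 and 72.7 RPM, a leaf to mature green ratio of 0.00704 with a counting interval of 0.000179 to 0.0394 (adjusted p = 0.000816). For miR447a-3p,b the ratio was 0.106 (0.00275 to 0.607, adjusted p = 0.0181), with 1 read in leaf and 21.8 RPM in floral bud, against 7.95, 19.0 and 14.1 RPM. The abundant miR158a-3p had 1667 RPM in leaf and 3751 RPM in floral bud, against 1162, 2035 and 1054 RPM, and passed in floral bud alone (1.40 ± 0.40, adjusted p = 0.00530), with its direction turned under TMM. In leaf, all 3 other scalings called it lower. From the other miR447a product, miR447a.2-3p had 19.6 RPM in leaf and 196 RPM in floral bud, against 4.68, 11.5 and 3.61 RPM, and miR822-5p had 45.1 RPM in leaf and 4.84 RPM in floral bud, against 0.118, 0.0343 and 0.143 RPM. Of 24 sequences of this young list 19 passed the filter, of which 9 were higher and 5 lower in leaf and 11 were higher and 2 lower in floral bud. The counts include miR822-5p, whose family did not exceed 0.207 RPM in any embryo library. It passed the filter through leaf, so its higher level was built in. The share of higher calls was near that over all sequences in leaf (49.4%), and in floral bud the share over all was 48.1%. Of those called higher, 3 of the 9 and 7 of the 11 kept their direction under all 3 other scalings, as did all called lower. Those that turned were miR158a-5p, miR158b, miR775, miR823, miR841a-5p and miR843 in leaf, and miR158a-3p, miR775, miR845a and miR845b in floral bud.

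The PPR regulator miR161.1, which reached the highest level of any sequence in the 24 embryo libraries (13327 RPM), had 20834 RPM in leaf and 4404 RPM in floral bud, against 2842, 4940 and 4685 RPM in mature green. It passed in leaf (2.33 ± 0.34, edgeR adjusted p = 4.29e-06), although its direction turned under TMM, and floral bud lay within the range. Both TMM and DESeq2 called it lower in floral bud. The miR173-3p sequence, the partner of a tasiRNA trigger, fell in both, with 234 RPM in leaf and 272 RPM in floral bud, against 639, 1062 and 955 RPM (adjusted p = 0.00159 and 0.00354). The F-box regulator miR394a,b-5p passed in floral bud alone, with 10.18 RPM in leaf and 74.1 RPM in floral bud, against 6.78, 9.60 and 10.5 RPM, and this call was lost under all 3 other scalings and without any 1 of the mature green libraries (adjusted p = 0.0626 to 0.0899). The nutrient-related miR399b,c-3p, which targets the phosphate regulator PHO2, had 18.9 RPM in leaf and 27.7 RPM in floral bud, against 0.206, 0.686 and 0.0357 RPM. The sulfate-related miR395b,c,f had 10.18 RPM in leaf (7 reads) and 2.77 RPM in floral bud (8 reads) and no read in mature green. Of 13 sequences of the sulfate and phosphate list only 3 passed the filter, through their levels in leaf and floral bud, so no count is read from it. DESeq2 did not call miR395b,c,f in either tissue (adjusted p = 0.260 and 0.384).

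A pair of adjoining sequences of 1 precursor was far more abundant in the floral bud library than in the others. The miR780.1 sequence had 7.27 RPM in leaf (5 reads) and 1093 RPM in floral bud, and no read in mature green, so that it was at least 33189-fold higher in floral bud. The miR780.2 sequence had 11.6 RPM in leaf (8 reads) and 953 RPM in floral bud, against 0.0589, 0.0343 and 0 RPM. Neither exceeded 1.19 RPM in any embryo library. Further sequences with their largest level in floral bud were miR856, with no read in leaf and 34.9 RPM in floral bud, miR867, with 1 read in leaf and 32.9 RPM in floral bud, and miR1887, with none in leaf and 14.2 RPM in floral bud, none of which had a read in any of the 24 embryo libraries. The 3 others of this kind were miR169g-3p (5.82 RPM in leaf and 31.9 RPM in floral bud), miR839-5p (1.45 and 22.8 RPM) and miR868-5p (1.45 and 11.8 RPM), each at 0.0457 RPM or less in mature green. Leaf instead was high for miR391-3p, with 116 RPM in leaf and 6.57 RPM in floral bud and no read in mature green, for miR391-5p, with 84.4 RPM in leaf and 14.2 RPM in floral bud, against 0.0295, 0 and 0.0357 RPM, and for miR847, a regulator of the auxin response repressor IAA28, with 21.8 RPM in leaf, 0.346 RPM in floral bud (1 read) and none in mature green. These sequences passed the filter through the tissue where they were high, so their edgeR calls add nothing to the levels. DESeq2 called neither miR391-3p nor miR847 in leaf (adjusted p = 0.0733 and 0.343), and of these floral bud sequences it called only the miR780 pair (adjusted p of the rest, 0.326 to 0.407). Reads of 24 bases made up 73.2% of miR1887 in floral bud and 38.75% of miR391-3p in leaf, although both annotated sequences have 21 bases.

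The tissues also differed from each other. Of 122 sequences with at least 10 RPM in leaf or floral bud, 56 were at least 2-fold higher in leaf with a counting interval that excluded equality, or 45.9%, and 35 were higher in floral bud, or 28.7%. With 1 library on either side this compares those libraries only, and no p is given. The largest ratio of leaf to floral bud was 481 for miR398b,c-3p (95% counting interval 348 to 683), followed by 271 for miR5654-3p (73.6 to 2263). At the other end, floral bud was 150-fold above leaf for miR780.1 (64.3 to 463), 81.9-fold for miR780.2 (41.5 to 190), 70.9-fold for miR858a (12.6 to 2809, from 1 leaf read), 45.2-fold for miR845a (28.2 to 77.7) and 38.8-fold for miR845b (21.04 to 81.1). Further down the order, it was 25.1-fold for miR319a,b (20.2 to 31.6). By contrast, miR396b-5p differed by 1.501-fold (1.44 to 1.57) and miR156a-5p by 0.781-fold (0.695 to 0.876).

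The length of the reads, which the lists did not use, differed as well. Reads of 21 bases made up 84.4% of miRNA reads in leaf and 79.9% in floral bud, against 67.6%, 65.6% and 64.7% in mature green. Reads of 20 bases made up 8.68% in leaf and 12.01% in floral bud, against 25.5%, 28.4% and 31.3%. The 24-base reads reached 3.02% in leaf and 1.54% in floral bud, against 0.275%, 0.224% and 0.247%. Of the 3910 RPM of 24-base reads in leaf, 3153 RPM were miR163, as were 458 of the 811 RPM in floral bud. The rest, 757 RPM in leaf and 352 RPM in floral bud, still lay above the 75.6 to 94.5 RPM of mature green.

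Of the 20-base reads of the mature green libraries, miR156a-5p made up 3650 of 7403 RPM, 6594 of 12264 RPM and 6975 of 10891 RPM. For miR156a-5p, itself 20 bases long, reads of exactly 20 bases made up 50.4% in leaf and 51.4% in floral bud, against 96.3%, 96.6% and 96.9% in mature green and 88.2% to 96.9% over all 24 embryo libraries. Nearly all other reads had 21 bases. Consequently the 20-base reads had 258 RPM in leaf and 336 RPM in floral bud, against 3650, 6594 and 6975 RPM, whereas the 21-base reads had 253 RPM in leaf and 316 RPM in floral bud, against 139, 229 and 221 RPM. The lower level in leaf and floral bud was thus seen in the 20-base reads and not in the 21-base reads. The tables give the length but not the sequence of the reads, so the position of the added base is unknown. For miR159a, 20-base reads made up 10.5% in leaf and 8.6% in floral bud, against 25.6%, 22.6% and 19.3%, and for miR161.1 0.9% in leaf and 1.7% in floral bud, against 7.2%, 5.4% and 8.7%. The share of 24-base reads of miR163 overlapped between the groups, with 90.2% in leaf and 82.1% in floral bud, against 82.1%, 92.1% and 92.5%.

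**Figure D4:**
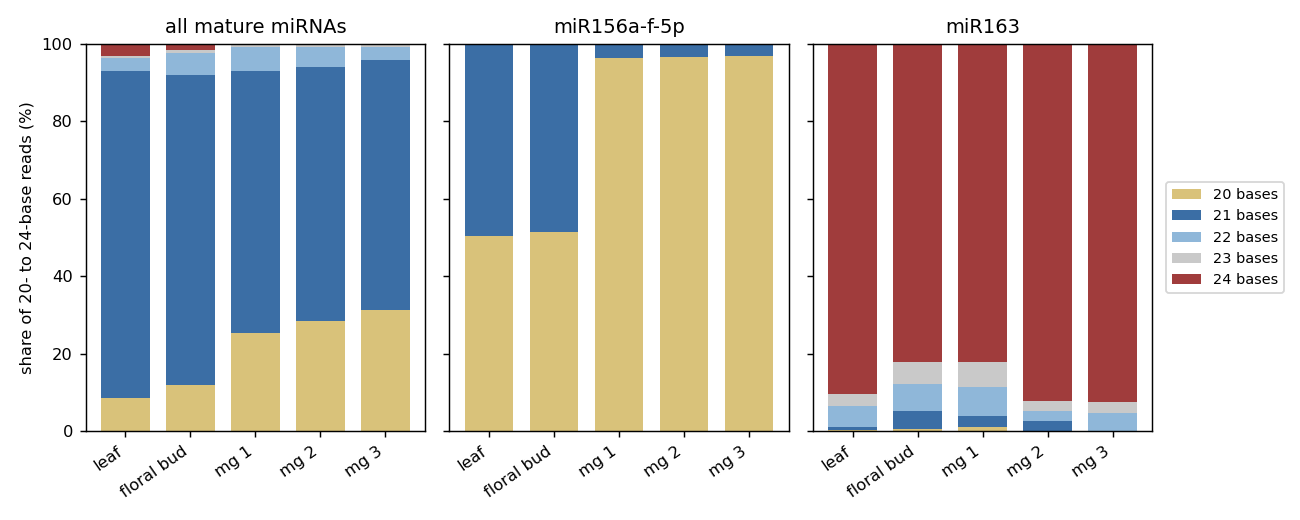
Share of reads of 20 to 24 bases in the leaf, floral bud and mature green (mg) libraries, in percent of 20- to 24-base reads, for all mature miRNAs, for miR156a-5p and its identical copies, and for miR163. About equal parts of 20 and 21 bases are seen for miR156a-5p in leaf (50.4% of 20 bases) and floral bud (51.4%), against at least 96.3% of 20 bases in each mature green library.

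A ratio between the 2 arms of 1 precursor does not depend on how libraries are scaled. For 13 precursors or groups of precursors with guide reads in every library, partner reads were divided by guide reads. The ratio lay above the mature green range for 8 in leaf and for 8 in floral bud, below it for 4 and 3, and within it for 1 and 2, with miR408 only just below it in leaf (0.184, against 0.188, 0.302 and 0.200). In floral bud, miR164c at 0.507 and miR396b at 0.0668 were only just above their highest mature green values of 0.493 and 0.0580. The widest gap in leaf was that of miR403, with 0.815 partner reads per guide read in leaf and 0.129 in floral bud, against 0.0119, 0.0129 and 0.00556 in mature green. The miR403-5p partner had 378 RPM in leaf and 50.9 RPM in floral bud, against 6.54, 10.4 and 3.64 RPM, while its guide did not pass the test. For miR398b,c the ratio was 0.541 in leaf and 3.65 in floral bud, against 0.122, 0.0682 and 0.0631. For miR390 it was 6.92 in leaf and 3.76 in floral bud, against 0.406, 1.75 and 0.644, so that the partner outnumbered the guide in both tissues and in 1 mature green library. It went the other way for miR173, with 11.5 in leaf and 9.35 in floral bud, against 90.0, 79.2 and 154, and for miR824, the regulator of the MADS gene AGL16, with 0.308 in leaf and 0.905 in floral bud, against 6.33, 3.97 and 3.57. The ratio of miR396a lay within the range in both tissues, with 15.2 in leaf and 3.69 in floral bud, against 15.5, 2.903 and 16.7, where 1 mature green library had only 3.22 guide reads.

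**Figure D5:**
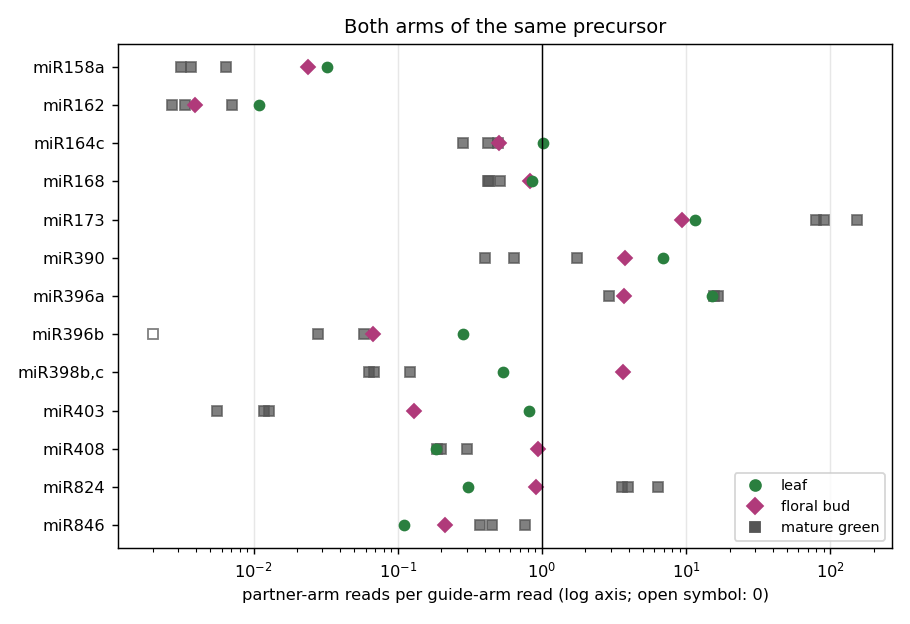
Reads of the partner arm per read of the guide arm for 13 precursors or groups of precursors, on a log axis. Green circles are leaf, purple diamonds floral bud and grey squares the 3 mature green libraries, an open square is a library with no partner read, and the vertical line marks equal levels. Leaf lies to the right of all mature green libraries for 8 precursors, such as miR403 (0.815 against 0.00556 to 0.0129), and to the left for 4, such as miR173 and miR824.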

How the data were processed

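Small RNA libraries were made by the authors from gel-purified RNA with the NEBNext small RNA kit. Embryo libraries came from small pools of embryos by a low-input protocol with diluted adapters. The paper reports that more miRNA families went undetected as the RNA input decreased. RNA input and PCR cycles of the leaf and floral bud libraries are not given in the sources used here. Reads were trimmed with Cutadapt, aligned to TAIR10 with STAR without mismatches, and reads with several matches were divided among loci by a rich-get-richer rule. Reads on the same strand that overlapped at least 80% of a mature miRNA were counted with BEDtools. The authors deposited, for each read length, expected counts, which can be fractions, and RPM, which scale them to genome-matching reads. Tool versions are not given in the sources used here. Because overlap rather than identity was required, a level includes reads that are longer or shifted. The RPM scale depends on all other small RNAs of a library.

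Here, loci with an identical mature sequence were summed, and expected counts were rounded for edgeR 4.0.16 in R 4.3.3 (quasi-likelihood F test, 26 wild-type libraries, 10 groups, 16 residual degrees of freedom, genome-matching reads as library size, Benjamini-Hochberg threshold 0.05, mean of at least 1 RPM over the 10 group means). The standard error is the log2 difference divided by the root of F. DESeq2 1.42.0 and limma 3.58.1 were alternatives. Steps were tested on simulated data. Other work used Python 3.11.15, pandas 2.3.3, numpy 2.4.6, scipy 1.17.1 and matplotlib 3.10.9. P-values measure the spread between embryo pools only.

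Named for each tissue were the 12 largest increases and the 12 largest decreases past the threshold, outside the mature green range and with at least 10 RPM in the single library or in the mature green mean. The 5 most abundant sequences of each tissue, members of the target lists, and sequences at least 2-fold beyond the range in opposite directions were named too. The arm pairs, the within-family ratios and the read-length shares were chosen after values were seen. The libraries, target lists and tests were chosen with earlier results of these data known. The remaining small RNA, nanoPARE and mRNA tables of the series were not used here.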

Additional observations from a re-analysis of the deposited data

Results flagged for a closer look

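In all, 5 sequences lay at least 2-fold beyond the mature green range in opposite directions in leaf and floral bud. They were picked by the size of their difference, and the difference between leaf and floral bud was not tested, since each tissue has 1 library. The ratio of leaf to floral bud was 481 for miR398b,c-3p, 271 for miR5654-3p and at least 26.6 for miR3932b-5p, for which floral bud had 0 reads. It was 0.0221 for miR845a and 0.0258 for miR845b. The miR5654-3p sequence had 188 RPM in leaf and 0.692 RPM in floral bud (2 reads), against 5.36, 6.93 and 7.29 RPM in mature green, and passed edgeR's test in both directions (adjusted p = 2.93e-05 and 0.0385). The call in floral bud was lost without mature green replicate 2 or 3 (adjusted p = 0.0506 and 0.0592). The miR3932b-5p sequence had 27.6 RPM in leaf and 0 in floral bud, against 3.36, 5.62 and 2.95 RPM in mature green, and passed in neither (adjusted p = 0.115 and 0.108).

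Reads of 25 to 30 bases, which entered no comparison, came to 124 RPM in leaf and 55.7 RPM in floral bud, against 10.3, 6.33 and 8.51 RPM in mature green. Of these, miR163 made up 112 RPM in leaf and 34.6 RPM in floral bud.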

How the results depend on the processing

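Counts of calls moved with the scale, and counts outside the range with the minimum level and, in leaf, with the scale. With TMM factors 30 sequences were higher and 34 lower in leaf, and 41 and 34 in floral bud. The counts were 45 and 21 in leaf and 34 and 26 in floral bud with DESeq2, and 45 and 24 in leaf and 66 and 16 in floral bud with total miRNA reads. As a share of miRNA reads, 38 sequences lay above the range in leaf. With a mean of at least 10 RPM, 43 were higher in leaf and 38 in floral bud. With limma on log2(RPM + 1), 17 were lower in floral bud. With 21-base reads alone 8 were lower in leaf and 6 in floral bud, 8 lay below the range in floral bud, and the ratio of total level to mature green was 4.65 in leaf and 1.79 in floral bud. With a minimum of 1 RPM, 139 lay above the range in leaf and 136 above and 25 below in floral bud. With 50 RPM, 39 lay above in leaf and 33 in floral bud. Counting each listed miRNA separately, 22 lay below in floral bud. The mean number of sequences detected in mature green was 97.3 at 1 RPM or more and 106 at the depth of the leaf library.

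Among the sequences described with their values, those whose direction turned were, in leaf under TMM, miR156b-3p (-0.61), miR159a (-0.95), miR161.1 (-1.10), miR162a,b-3p (-2.21), miR165a-5p (-1.98) and miR167a-5p,b (-1.64), under DESeq2 miR162a,b-3p (-0.10), and with miRNA reads as the scale miR162a,b-3p (-0.62), miR165a-5p (-0.41) and miR167a-5p,b (-0.064). In floral bud they were, under TMM, miR158a-3p (-1.19), miR159b-3p (-1.44), miR162a,b-3p (-1.16), miR165a-5p (-0.88), miR398b,c-5p (-0.41), miR845a (-0.78) and miR845b (-0.12), and under DESeq2 miR159b-3p (-0.069). With 21-base reads alone, miR156a-5p was at 0.37 in leaf and 0.69 in floral bud. Beyond the different scale or reads used, the cause was not tested.

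Without each mature green library in turn, 69 to 76 sequences were higher and 13 to 14 lower in leaf, and 66 to 74 higher and 9 to 11 lower in floral bud. In leaf 76 to 77 lay above the range and 19 to 21 below, and in floral bud 72 to 74 and 14 to 18. Calls of single sequences lost or gained in this way are given beside their values, except that in leaf miR867 was lost without replicate 1 (adjusted p = 0.0502), and miR157d and miR839-5p were gained without replicate 2 (adjusted p = 0.0368 and 0.0419). The ratio of total level was 3.32 to 4.06 in leaf and 1.35 to 1.65 in floral bud. A fit with a replicate block called 74 higher and 13 lower in leaf, and 68 and 9 in floral bud. Same-numbered embryo libraries did not deviate together (mean r = 0.036 across genes, which are not independent replicates), so the numbers were not taken to pair samples. The leaf floor of 4.36 RPM limits what can be said of sequences with 0 reads in leaf.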
